A study of Mus musculus with 8 samples.

Results

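Natural killer (NK) and cytotoxic lymphocyte genes were followed in the whole blood of mice through 11 probe sets for 10 genes, of 45101 probe sets on the array. The members are listed by gene name, as genes of the killing machinery and identity of these cells. The rule uses no measured value, but the list was drawn up with earlier results of these data known. They are the receptors Klrd1, Klrk1 and Klrg1, the cytokine receptor chain Il2rb (measured by a pair of probe sets), the transcription factors Tbx21 and Eomes, the granule genes Gzma, Gzmb and Prf1, and the chemokine Ccl5. The gene of each probe set was taken as named with the member list, since a table of genes for the rest of the array was not used here.

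The study compared 4 control mice, kept at room conditions in Kathmandu, with 4 mice taken on an expedition to Mount Everest under hypobaric hypoxia. For the hypoxic mice the oxygen level went down from 21% to about 7%, and all mice were bled from the vena cava after 15 days. Total RNA from 100 µl of blood of each mouse was hybridized to 1 array. The labels give no strain, sex, age or genotype. The labels number the mice separately but do not say whether they shared a cage or shipment. The p-values set the difference between groups against the spread between mice within a group. They do not cover variation between expeditions. Travel and handling went with the hypoxic group and cannot be told apart from oxygen.

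NK cells are innate lymphocytes that kill infected or transformed cells without prior sensitization, and CD8+ T cells that have turned into effectors use the same weapons. Both store perforin and granzymes in granules: perforin opens the target's membrane and granzymes cleave proteins inside it. Whether an NK cell fires depends on the balance of activating and inhibitory receptors, many of them of the killer cell lectin-like family, and the survival of NK cells depends on the cytokine interleukin-15, which signals through Il2rb. The T-box factors T-bet (Tbx21) and Eomes direct this programme in both cell types. In whole blood, fewer such cells, less RNA per cell and more RNA from other blood cells cannot be told apart. Defining markers of other blood cells were not read here, since a table of genes for the rest of the array was not used. The share of NK cells, T cells or other leukocytes in these samples was therefore not measured.

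Of the 10 member probe sets bright enough to be tested, 1 passed the test and 9 did not. The receptor gene Klrd1 fell in the hypoxic mice, to a level 1.5-fold lower than in controls, and no member rose. The means of 8 of the 10 lay lower in the hypoxic mice, from -0.11 for Klrg1 to -1.05 for Ccl5 on the log2 scale, while those of Gzmb and Prf1 lay 0.14 and 0.13 higher. The share of members called was below that of the whole array, on which 31.2% of 29231 tested probe sets passed in either direction, 18.8% as lower and 12.4% as higher. The median change of the 10 tested members was -0.49, beside -0.06 over all tested probe sets, and 54.6% of all tested probe sets had a lower mean in the hypoxic mice. Over the 10210 brighter probe sets, with log2 above 6 on at least 4 arrays, the median change was -0.27. Klrd1, Klrg1, Gzma and Ccl5 are among these. The test was limma with Benjamini-Hochberg adjustment over all tested probe sets, with an adjusted p under 0.05 as the threshold. A probe set was tested where its GCRMA log2 value lay above 4 on at least 4 of the 8 arrays. Precision is limited by the number of arrays.

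**Figure D1:**
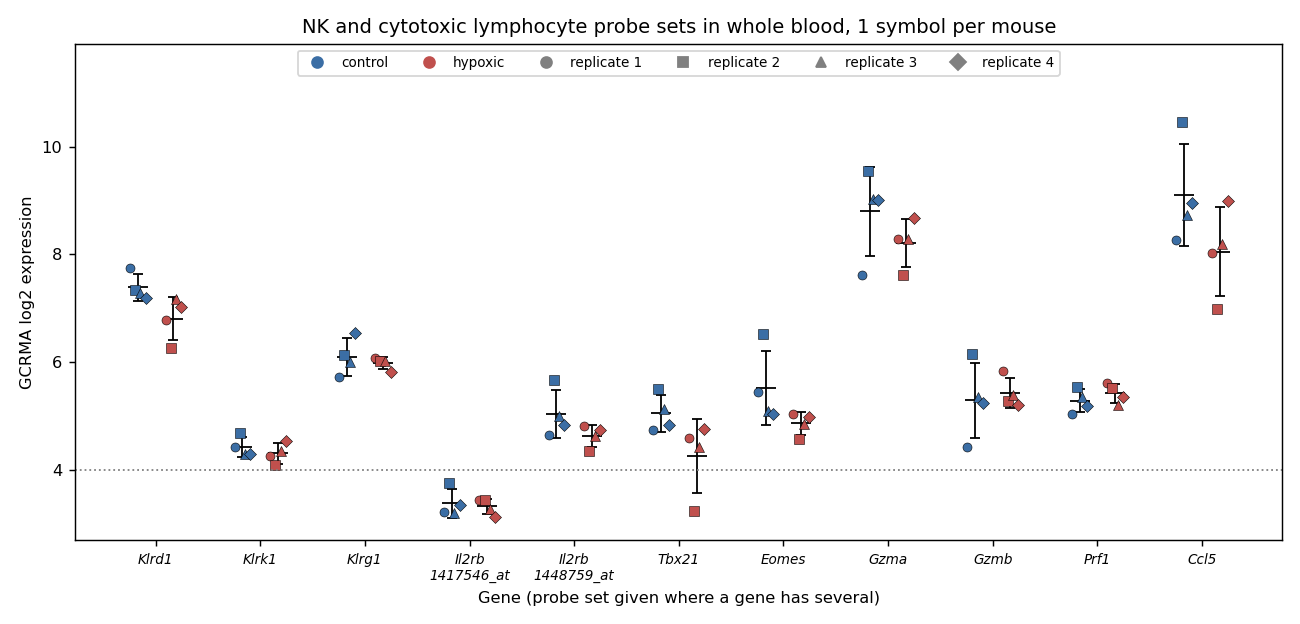
GCRMA log2 expression (vertical axis) of the 11 member probe sets, 1 symbol per mouse, with control mice in blue and hypoxic mice in red. Horizontal ticks and bars give the mean and SD of 4 mice, and the dotted line is the filter level of 4, under which all values of the Il2rb probe set 1417546_at lie.

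Klrd1 (probe set 1460245_at) encodes CD94, which pairs with NKG2 chains into receptors that read the class I-like molecule Qa-1 in the mouse. Its log2 level was 7.75, 7.34, 7.28 and 7.20 in control replicates 1 to 4 and 6.78, 6.26, 7.18 and 7.02 in hypoxic replicates 1 to 4. Every hypoxic mouse lay below every control, but the highest hypoxic mouse was only 0.021 under the lowest control. Groups that did not overlap were found for 31.9% of all tested probe sets, with the hypoxic mice below in 18.0%. The mean went from 7.39 ± 0.25 (SD, n = 4) to 6.81 ± 0.40, a change of -0.58 ± 0.21 (SE) with a 95% interval from -1.03 to -0.13. The adjusted p was 0.0498 in limma, just inside the threshold, and the two-sided exact permutation p was 0.0286, the smallest that 4 against 4 mice can give. Over the whole array, calls went from 9114 with all mice to 9315 without hypoxic replicate 3 and 6872 to 7955 without any other mouse. The Klrd1 call held without hypoxic replicate 3 (adjusted p = 0.0236, limma). It was lost when any other mouse was left out, with adjusted p in limma up to 0.136 (without control replicate 1). It was lost in 15 of 20 alternatives in all, among them no filter (adjusted p = 0.0599), arrays centred on their median (0.0781), renewed quantile normalization (0.14), a linear model without moderation (0.122) and the replicate number as a block (0.067). In the authors' deposited table Klrd1 had a ratio of hypoxic to control of 0.679 at a q-value of 2.40%, under the 5% that 36.5% of its probe sets met.

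The other receptors showed smaller differences, and neither passed the test. Klrk1 (1450495_a_at) encodes NKG2D, an activating receptor for stress-induced ligands on target cells. It was at 4.43, 4.70, 4.31 and 4.31 in controls and 4.26, 4.09, 4.36 and 4.54 in hypoxic mice, close to the filter level of 4. The groups overlapped, and the difference was -0.12 ± 0.15 (SE), with a 95% interval from -0.45 to 0.20 (limma, adjusted p = 0.548). Klrg1 (1420788_at) encodes an inhibitory receptor for cadherins that marks mature NK cells and effector CD8+ T cells. Its level was 5.72, 6.14, 6.0 and 6.55 in controls and 6.08, 6.03, 6.02 and 5.83 in hypoxic mice. All hypoxic values lay within the range of the controls, and the difference was -0.11 ± 0.17 (SE), with a 95% interval from -0.49 to 0.27 (limma, adjusted p = 0.659). After renewed quantile normalization the Klrg1 difference had the other sign, at 0.03.

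Il2rb, the beta chain shared by the receptors for interleukin-2 and interleukin-15, was read by probe sets of unequal brightness. At 1448759_at the controls were at 4.65, 5.68, 5.0 and 4.83 and the hypoxic mice at 4.82, 4.36, 4.63 and 4.75. Control replicate 2 was the highest, and the hypoxic values overlapped those of the other controls. The difference was -0.40 ± 0.21 (SE), with a 95% interval from -0.86 to 0.06 (limma, adjusted p = 0.165), and it was -0.19 without control replicate 2. Probe set 1417546_at lay under the filter level on all 8 arrays, between 3.20 and 3.77 in controls and between 3.14 and 3.45 in hypoxic mice, and was not tested. Its means differed by -0.06. The change at 1448759_at minus that at 1417546_at was -0.34 (exact permutation p = 0.143). Values this dim cannot show whether the Il2rb probe sets agree.

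The T-box factors had some of the larger differences among the members. Tbx21 (1449361_at) encodes T-bet, which drives interferon-gamma production and terminal maturation. Its level was 4.75, 5.50, 5.14 and 4.84 in controls and 4.59, 3.25, 4.44 and 4.76 in hypoxic mice. Hypoxic replicate 2 was the lowest, and only hypoxic replicate 4 reached into the control range, which left a gap of -0.013 between the groups. The difference was -0.80 ± 0.30 (SE), with a 95% interval from -1.46 to -0.15, and it did not pass the threshold in limma (adjusted p = 0.0613). Tbx21 did pass with values under 4 set to 4, where the difference was -0.61 (adjusted p = 0.0418, limma), and in SAM with all splits of the mice (q = 0.0449), in which 23.1% of all tested probe sets passed as lower. In the authors' deposited table its q-value was 3.06%. Without hypoxic replicate 2 the difference was -0.46 (adjusted p = 0.105, limma), and without hypoxic replicate 4 it was -0.97 and passed (adjusted p = 0.045, limma).

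Eomes (1426001_at), which in mice is needed for NK cell maturation and marks memory CD8+ T cells, was at 5.45, 6.53, 5.10 and 5.05 in controls and 5.05, 4.58, 4.85 and 4.98 in hypoxic mice. Every hypoxic mouse lay below every control, by as little as 0.001, and control replicate 2 was the highest. The difference was -0.67 ± 0.28 (SE), with a 95% interval from -1.28 to -0.05 and an adjusted p of 0.0936 in limma. It was -0.33 without control replicate 2 (adjusted p = 0.183, limma). Eomes and Klrd1 were the 2 members whose groups did not overlap. Over all tested probe sets 31.9% did not overlap, with the hypoxic mice below in 18.0%. In limma 4 members (Klrd1, Tbx21, Eomes and Ccl5) had an unadjusted p under 0.05, as did 43.3% of all tested probe sets.

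**Figure D2:**
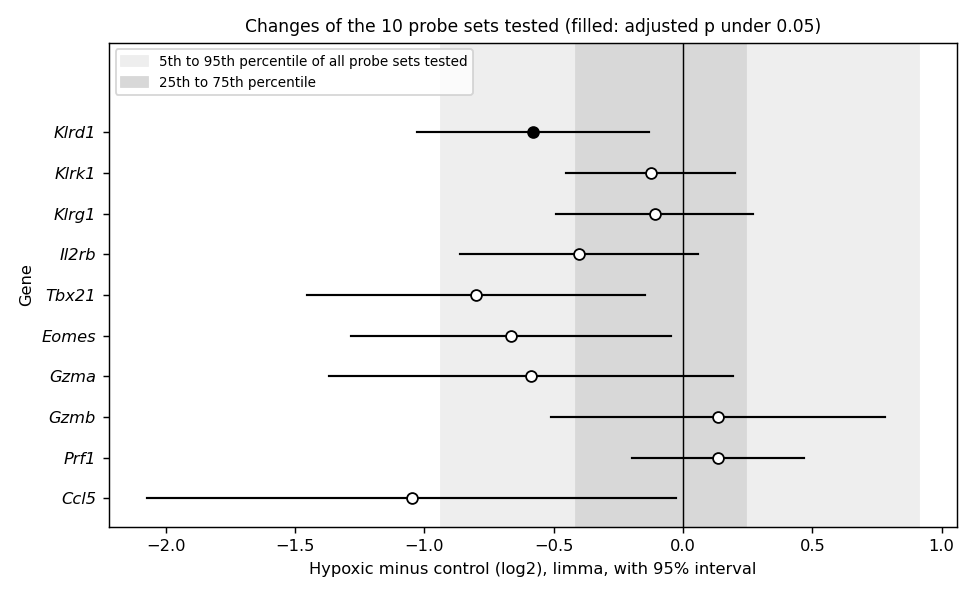
Change of the 10 tested member probe sets (hypoxic minus control, log2, horizontal axis) with its 95% interval from limma, with Il2rb shown at 1448759_at. The filled point, Klrd1 at -0.58, passed the threshold, and the shaded bands give the spread of changes over all 29231 tested probe sets, whose 5th and 95th percentiles are -0.94 and 0.91.

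Among the granule genes the mean of Gzma lay lower in the hypoxic mice and those of Gzmb and Prf1 higher. None of these changes passed the test. The change of Gzma was not shown to differ from that of Gzmb or Prf1 (exact permutation, adjusted p = 0.297 and 0.429 over 45 pairs). Gzma encodes granzyme A, a protease that cleaves after basic residues, and Gzmb encodes granzyme B, which cleaves after aspartate and activates caspases. The 250 bases before the RefSeq start of each (build GRCm38.p6, 5′ to 3′ on the gene's strand, which is the minus strand for both) are shown because T-box and Runx factors are known to regulate granule genes of cytotoxic lymphocytes. Capitals mark the T-box core AGGTGT and the Runx core TGTGGT on either strand. The Gzma sequence is chr13:113100982-113101231 and the Gzmb sequence is chr14:56262335-56262584.
Gzma: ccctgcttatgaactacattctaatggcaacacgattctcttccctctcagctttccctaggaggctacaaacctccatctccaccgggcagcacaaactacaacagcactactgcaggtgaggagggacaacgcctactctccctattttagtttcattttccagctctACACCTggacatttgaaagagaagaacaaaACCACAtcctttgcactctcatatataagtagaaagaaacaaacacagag
Gzmb: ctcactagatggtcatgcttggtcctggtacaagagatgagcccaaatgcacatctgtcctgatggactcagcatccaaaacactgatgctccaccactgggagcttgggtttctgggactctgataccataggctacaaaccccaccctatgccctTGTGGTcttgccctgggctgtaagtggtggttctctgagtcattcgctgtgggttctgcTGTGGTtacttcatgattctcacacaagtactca

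The Gzma window held 1 T-box core, starting at position -80 before the start, and 1 Runx core at -50, both in the reverse complement. The Gzmb window held 0 T-box cores and 2 Runx cores, at -93 and -34. Of 32851 RefSeq promoter windows of this length, 11.8% held the T-box core and 14% the Runx core, on either strand. Promoters were matched for 6 member genes (Klrk1, Tbx21, Eomes, Gzma, Gzmb and Prf1). Among these 6, the T-box core was found for Gzma and Prf1 and the Runx core for Klrk1, Gzma, Gzmb and Prf1. These matches describe letters and not binding. Klrd1, Klrg1, Il2rb and Ccl5 were not matched.

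Gzma (1417898_a_at) was at 7.62, 9.55, 9.03 and 9.0 in controls and 8.28, 7.61, 8.29 and 8.67 in hypoxic mice. Control replicate 1 lay with the lowest hypoxic mouse, while the other 3 controls lay above all hypoxic mice. The difference was -0.59 ± 0.36 (SE), with a 95% interval from -1.37 to 0.19 (limma, adjusted p = 0.225). Without control replicate 1 it was -0.98 and passed the threshold (adjusted p = 0.0169, limma), and without control replicate 2 it was -0.34 (adjusted p = 0.501, limma).

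Gzmb (1419060_at) was at 4.44, 6.15, 5.35 and 5.24 in controls and 5.84, 5.29, 5.39 and 5.21 in hypoxic mice. The controls held both the lowest and the highest value, and the difference was 0.14 ± 0.30 (SE), with a 95% interval from -0.51 to 0.78 (limma, adjusted p = 0.748). Leaving out control replicate 1 turned it to -0.15, and leaving out control replicate 2 gave 0.42. Prf1 (1451862_a_at), the gene of perforin, was at 5.05, 5.55, 5.36 and 5.20 in controls and 5.61, 5.52, 5.21 and 5.36 in hypoxic mice. The groups overlapped, and the difference was 0.13 ± 0.15 (SE), with a 95% interval from -0.20 to 0.47 (limma, adjusted p = 0.523).

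Ccl5 (1418126_at) encodes a chemokine that draws T cells, monocytes and eosinophils and is stored by memory CD8+ T cells and made by NK cells. Its level was 8.26, 10.46, 8.73 and 8.96 in controls and 8.03, 6.99, 8.19 and 8.99 in hypoxic mice. In both groups the mice spanned more than the groups differed, with ranges of 2.20 among controls and 2.00 among hypoxic mice, and hypoxic replicate 4 lay above all controls other than replicate 2. The difference of -1.05 ± 0.47 (SE), or 2.07-fold lower, had the widest interval of the members, from -2.07 to -0.03, and did not pass (adjusted p = 0.107, limma). It was -0.60 without control replicate 2 and -0.70 without hypoxic replicate 2. Of all tested probe sets, 3.12% had a lower change than Ccl5.

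The spread between mice was large for several members compared with the array as a whole. The median SD over all tested probe sets was 0.198 among controls and 0.24 among hypoxic mice. Among controls the SD was 0.95 for Ccl5, 0.83 for Gzma, 0.70 for Gzmb and 0.69 for Eomes, larger than for 99.6%, 99.3%, 98.7% and 98.6% of tested probe sets. Among hypoxic mice it was 0.82 for Ccl5 and 0.69 for Tbx21, larger than for 99.3% and 98.2%. Prf1 and Klrk1 varied less, with control SDs of 0.21 and 0.18. The spread of Klrg1 was 0.35 among controls and 0.11 among hypoxic mice.

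The same mice were high or low for many members, although none of the 22 groups of 4 values held one that stood apart from the others by Dixon's criterion. Control replicate 2 had the highest control value at 9 of the 11 probe sets, the exceptions being Klrd1 and Klrg1, and it was the highest control at 27.5% of all tested probe sets. Control replicate 1 had the lowest control value at 7 of the 11, against 24.9% of all tested probe sets, and yet the highest value of Klrd1. Hypoxic replicate 2 had the lowest hypoxic value at 7 of the 11 (Klrd1, Klrk1, Il2rb at 1448759_at, Tbx21, Eomes, Gzma and Ccl5), against 25.4% of all tested probe sets. It was not the lowest for Gzmb or Prf1. Over the 10 tested members the median deviation from the group mean was 0.54 for control replicate 2 and -0.35 for control replicate 1. It was -0.28 for hypoxic replicate 2, whereas over all tested probe sets these medians were 0.021, -0.011 and -0.005.

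**Figure D3:**
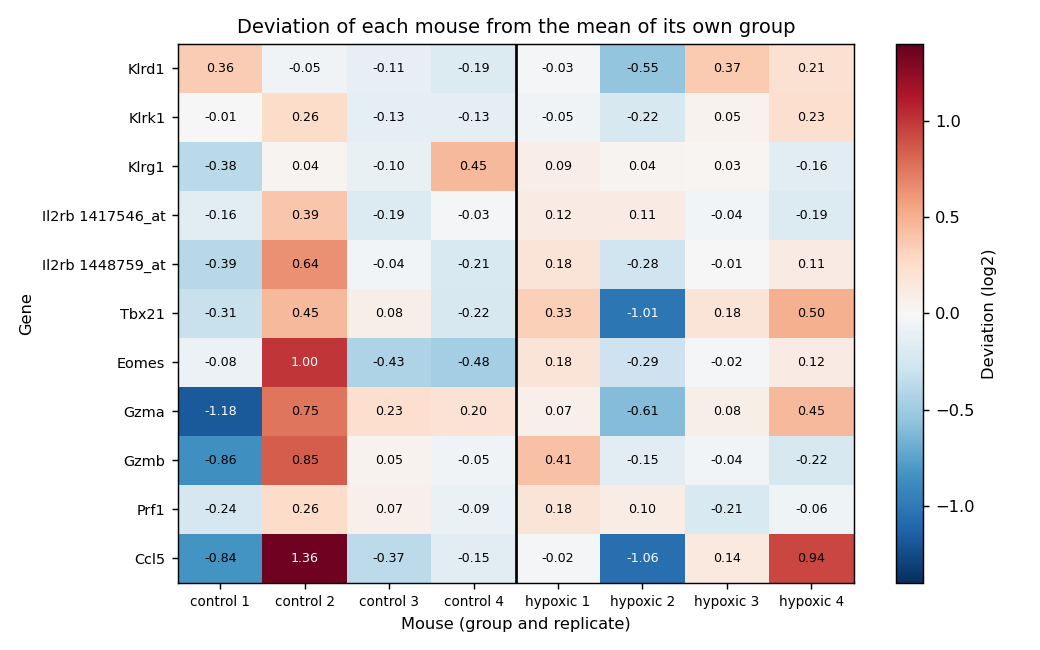
Deviation of each mouse (columns) from the mean of its own group for each member probe set (rows), in log2 units, with red above and blue below the mean. Control 2 is above its group's mean at 10 probe sets, most of all for Ccl5 (1.36), and hypoxic 2 is lowest for Ccl5 (-1.06) and Tbx21 (-1.01).

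Differences between members were tested on the difference of their log2 values within each mouse, whose size has no meaning of its own across probe sets and whose change between groups does. In controls the Gzma and Gzmb values moved together, so that their difference was 3.51 ± 0.26 (SD) although each alone varied by 0.83 and 0.70. In hypoxic mice this was not seen, since the difference was 2.78 ± 0.52 while Gzma and Gzmb alone varied by 0.44 and 0.28. The change of the difference was -0.73 (exact permutation p = 0.0857, 0.297 after adjustment over the 45 pairs). The smallest exact permutation p of 0.0286 was reached by 3 of the 45 pairs, in which Eomes, Il2rb (1448759_at) and Tbx21 each lay lower in hypoxic mice relative to Prf1, by -0.80, -0.54 and -0.93. None of the 45 passed after adjustment, where the lowest adjusted p was 0.297. With 4 mice in each group at least 26 of the 45 pairs would have to reach the smallest p for any to pass, so this outcome says little about whether members differed in change.

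**Figure D4:**
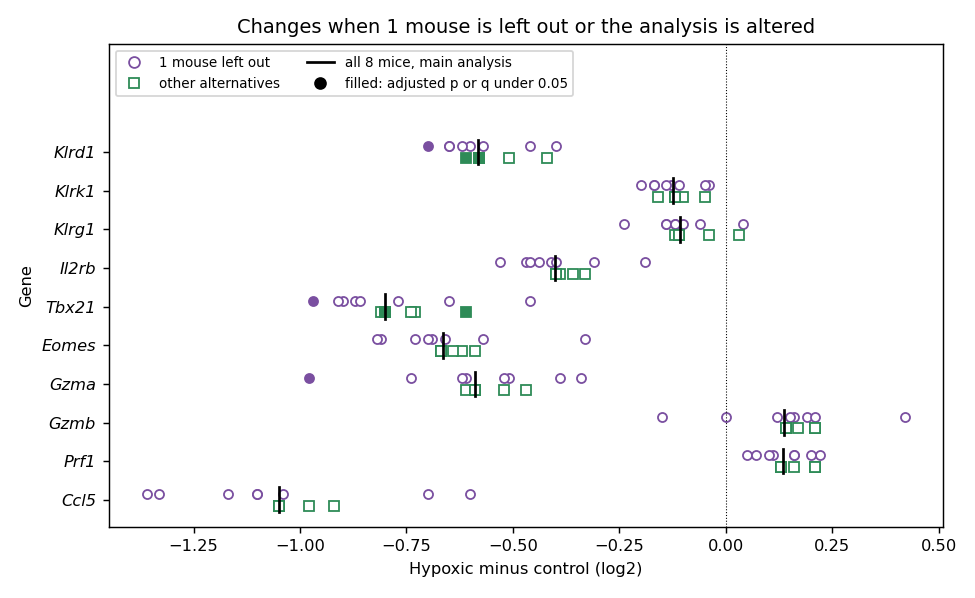
Change of each tested member (hypoxic minus control, log2, horizontal axis) when 1 mouse is left out (circles) or another setting is used (squares), with the value of the main analysis as a vertical line. Filled symbols mark an adjusted p or q under 0.05, and Gzmb and Klrg1 are the members with values on both sides of 0.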

How the data were processed

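Per the submitters' processing notes the authors used GCRMA and Partek (versions not given in the sources used here). The deposited values are GCRMA log2 expression, 1 array per mouse, listed without their decimal point. For each of the 38206 probe sets of the authors' deposited SAM table, all readings of the listed digits were tried, and the combination whose log2 difference of means equalled the deposited one was taken. Where several fitted (32 probe sets), the one with the least spread was taken. The deposited fold ratio, not used in the reading, was matched within 3e-06 for 38205 of them, all members included. Per the file headers that table also gives a score and a q-value in percent. It has a gene name column too, which was not used here. For the 6895 probe sets outside that table, the readings that lay closest together across the arrays were taken. At most 3 arrays read above 3 for any of these, so none passed the filter. Among the fits, they entered only the one without a filter and the renewed quantile normalization.

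The 64 control probe sets were left out. limma (version 3.58.1, R 4.3.3; lmFit, eBayes, group as the only term) was run on every probe set that exceeded 4 on the log2 scale in 4 or more arrays, and was tested on simulated data. Single values were compared by exact permutation over all 70 assignments of mice. Values were restored and plotted in Python 3.11.15 (pandas 2.3.3, numpy 2.4.6, matplotlib 3.10.9). Members and lists were chosen with earlier results of these data known. The named genes are all 11 member probe sets. Further pathway and cell type lists, and the comparison with Cd3e, were planned and not run, since no table of genes for the rest of the array was used. Alternatives covered the filter, a floor, the variance model, scaling, array weights, the replicate number as a block, SAM, the threshold and each mouse left out. Same-numbered mice are different animals, with correlations of deviations of -0.113, -0.056, -0.102 and 0.062.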

Additional observations from a re-analysis of the deposited data

How the results depend on the processing

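The single call, Klrd1, depended on the setting, and the change stayed below 0 in all of the settings tried. It was -0.58 and no longer passed without a filter (adjusted p = 0.0599), with values under 4 set to 4 (0.0506), with a trended and robust variance (0.0522), in a linear model without moderation (0.122), with a replicate block (0.067) and at an adjusted p under 0.01. It was -0.51 with arrays centred on their median (adjusted p = 0.0781, limma) and -0.42 after renewed quantile normalization (0.14). It passed with the stricter filter (adjusted p = 0.0349, limma), with array weights (0.0364, limma) and in SAM (q = 0.0376). With the stricter filter 3831 of 10210 tested probe sets were called as lower. Array weights called 5857 of 29231 as lower and SAM 6745, against 5500 in the main analysis. The count of members called as lower was 1 in the main analysis. It was 0 without a filter, with a trended and robust variance, without moderation, with either scaling, with the replicate block and at the stricter threshold, and 2 in SAM and by the authors' deposited q-values. The 2 calls were Klrd1 and Tbx21 (-0.80), and with values under 4 set to 4 the 1 call was Tbx21 (-0.61). Array-wide calls as lower moved too, to 3607 of 29231 without moderation, 4812 with the block and 2663 at the stricter threshold. They were 4458 with arrays centred, 4181 after renewed quantile normalization, 5503 with a trended and robust variance and 5437 with values under 4 set to 4. Without a filter they were 5467 of 45037. The authors' q-values called 36.5% in either direction. The cause was not tested. With each mouse left out in turn the count of member calls was 0 to 1. Array-wide calls as lower were then 5738 of 29231 without hypoxic replicate 3 and 4159 to 4768 without any other mouse. The member changes lay between -0.70 and -0.40 for Klrd1, -0.97 and -0.46 for Tbx21, and -0.98 and -0.34 for Gzma. They lay between -0.24 and 0.04 for Klrg1, and -0.15 and 0.42 for Gzmb. Klrg1 was 0.03 after renewed quantile normalization. Changes of the other 5 tested members kept their sign and stayed outside the threshold in every setting that tested them. No member was called as higher in any setting. Over the whole array the replicate block gave 7764 calls against 9114 without it, and the best-correlated hypoxic mouse carried the same number for 1 control only, so no pairing was assumed. The lists and the Cd3e comparison were not run. With the stricter filter only Klrd1, Klrg1, Gzma and Ccl5 were tested. Klrk1, Tbx21 and Il2rb had values near or under the filter level, and their signal limits what can be told of them.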
